A study of Homo sapiens with 6 samples.

Results

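The 9 genes described here encode parts of the Notch pathway: the ligands JAG1 and JAG2, the receptors NOTCH1, NOTCH2 and NOTCH3, and HES1, HEY1, HEYL and NRARP, which are targets of the activated receptors. They were taken by name, and each matched 1 Ensembl identifier of the 58336 genes in the count table. Of the 9, 8 had enough reads to be tested and HEYL had 0 reads in all 6 libraries.

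All libraries came from SUM159, a human triple-negative breast cancer line, and differed in ITGB4, the integrin beta-4 subunit that anchors epithelial cells to laminin. Cultured cells gave 1 ITGB4-high library and 2 ITGB4-low control libraries, from clones 1 and 3. ITGB4-low cells taken back from mouse lungs gave 2 libraries with LM2, lung-seeking breast cancer cells derived from MDA-MB-231 and placed in the same lungs (clones 1 and 3), and 1 library from mice that received bleomycin, a drug that injures the lung, through the trachea (clone 1). Per the series' design text, lung cells entered by the tail vein, were kept in a dish overnight after dissociation and were sorted for tdTomato. The lung, the sort and the trigger therefore go together, and ITGB4-low cells from lungs without a trigger were not analysed here. Each ITGB4-low clone is 1 clone, and the labels do not say how many mice stand behind a library. LM2 cells are human too, and their share in the LM2 libraries was not measured.

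Libraries held 13607953 to 22222121 counts. Levels are given in CPM, a gene's reads over the library's total after TMM scaling, and a floor of 3 reads, the limit that a count of 0 allows, was 0.138 to 0.232 CPM. Floors and intervals cover counting error only. ITGB4 stood at 25.9 and 24.6 CPM in control clones 1 and 3, 383 in ITGB4-high cells, 470 and 441 in the LM2 libraries of clones 1 and 3 and 305 in the bleomycin library, low in cultured ITGB4-low cells as labelled and high in the same clones from lungs. Of genes that mark the line itself, the progesterone receptor PGR was at 0 counts, the oestrogen receptor ESR1 at 0.415 CPM or less, and the mesenchymal filament VIM at 2171 to 3596 CPM. The growth factor receptor ERBB2, listed with them as low or absent, was detected at 62.2 and 66.7 CPM in controls, 27.9 and 49.3 with LM2 (clones 1 and 3), 39.2 with bleomycin and 34 in ITGB4-high cells. Among markers of lung cells that a sort could carry over, CDH5 of endothelium, CD3E and MS4A1 of lymphocytes and SFTPC, SFTPA1 and SCGB1A1 of lung epithelium were at 0 counts in every library. The summed leukocyte markers were at 1.59 and 0.734 CPM in controls, 3.64 and 0.958 with LM2 (clones 1 and 3), 5.31 with bleomycin and 1.17 in ITGB4-high cells. Of the 3 tested, PTPRC was at 0.207 and 0.184 CPM in controls, 2.32 and 0.255 with LM2 (clones 1 and 3) and 2.69 with bleomycin. CD68 was at 0.415 and 0.505, 0.464 and 0.511, and 1.6 in that order. LYZ was at 0.899 and 0.0459, 0.155 and 0.0638, and 0.448. The 8 endothelial markers summed to 83.3 and 121 CPM in controls, 11.4 and 26.5 with LM2 (clones 1 and 3), 23.6 with bleomycin and 33.4 in ITGB4-high cells, most of it in the controls from KDR. PECAM1, another of them, did not follow the sum: it was at 1.8 and 2.02 CPM in controls, 2.32 and 3.64 with LM2 (clones 1 and 3), 9.41 with bleomycin and 3.06 in ITGB4-high cells (bleomycin against control 2.29, adjusted p = 0.182). The 7 lung epithelial markers summed to 2.48 to 6.5 CPM. AGER, 1 of them, was at 2.28 and 1.79 CPM in controls, 3.79 and 2.87 with LM2 (clones 1 and 3) and 3.52 with bleomycin. NKX2-1, another, was at 4.08 and 3.9, 0 and 1.4, and 0 in that order. The 7 fibroblast and mural markers summed to 159 to 207 CPM in cultured and 515 to 851 CPM in lung libraries. SUM159 cells express most of them in culture too. Most of the lung sums came from PDGFRA and COL1A1. PDGFRA was at 32.5 and 35.1 CPM in controls, 449 and 27.5 with LM2 (clones 1 and 3) and 221 with bleomycin. COL1A1 was at 36.2 and 29.8, 90.3 and 711, and 194 in the same order. PDGFRB was lower in each lung library, at 28.1 and 26.9, 6.73 and 24.8, and 11.1 in that order. The host lungs were mouse, and the submitters' processing notes name the human build hg38. Reads of mouse cells could therefore go uncounted, and low or 0 counts of human genes do not show that such cells were absent. The part of carried-over cells in the values below was not tested.

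Notch signalling passes between touching cells. A ligand of the Jagged or Delta type on 1 cell binds a Notch receptor on its neighbour, the receptor is cut by an ADAM protease and then by gamma-secretase, and the freed intracellular domain joins the DNA-binding protein RBPJ and a Mastermind coactivator to switch on targets. HES1, HEY1 and HEYL are basic helix-loop-helix repressors, and NRARP is a short ankyrin-repeat protein that feeds back to limit the pathway. In mammary epithelium the pathway is known for its part in the choice between basal and luminal fates.

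The regions upstream of HES1 and JAG2 are shown because these genes had the largest differences in level of the 9, and because RBPJ binds the letters TGGGAA, which HES1 holds 2 times. Each line is read 5′ to 3′ on the gene's strand and ends before the gene's start in both RefSeq (GRCh38.p14) and GENCODE 29, with 247 bases for HES1 and 202 for JAG2. Capitals mark TGGGAA, with the base that extends it to GTGGGAA where present.
HES1 (chr3:194135898-194136144, plus strand): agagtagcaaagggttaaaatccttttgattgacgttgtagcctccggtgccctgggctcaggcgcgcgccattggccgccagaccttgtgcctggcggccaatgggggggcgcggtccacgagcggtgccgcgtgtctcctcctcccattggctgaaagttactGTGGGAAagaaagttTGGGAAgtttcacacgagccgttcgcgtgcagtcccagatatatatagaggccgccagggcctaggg
JAG2 (chr14:105168825-105169026, minus strand): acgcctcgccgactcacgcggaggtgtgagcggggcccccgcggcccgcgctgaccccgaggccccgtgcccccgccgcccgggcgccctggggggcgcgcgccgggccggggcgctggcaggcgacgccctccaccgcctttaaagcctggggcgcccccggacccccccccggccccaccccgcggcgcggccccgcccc
Both motifs were searched as written and as their reverse complements in the 250 bases before the RefSeq start. The matches of HES1 began 84 and 70 bases before its RefSeq start, on the gene's strand. HEYL also held 2, which began 178 and 99 bases before its RefSeq start, the first of them as the reverse complement, and its window lay inside the longer GENCODE gene model. Of 35116 upstream regions of this length in the RefSeq table, 20.8% held TGGGAA on either strand at least once and 2.9% held 2 or more matches, while 5.43% held the longer GTGGGAA, which contains the shorter form. The windows of JAG1, JAG2, NOTCH1, NOTCH2, NOTCH3 and NRARP held no match to these letters, and no window of HEY1 was searched. A match is a stretch of letters and not a measured binding site.

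JAG2, a ligand, was nearly silent in cultured ITGB4-low cells and abundant in every other library (ENSG00000184916, chromosome 14, 105140981 to 105168824, minus strand, GRCh38). It had 20 reads in each control, or 1.38 CPM in clone 1 and 0.918 in clone 3. Lung cells of clone 1 had 27.1 CPM with LM2 and 40.8 with bleomycin, those of clone 3 had 60.8 with LM2, and ITGB4-high cells had 77.9. The lung libraries did not overlap the controls, and the lowest of them, LM2 clone 1, was still far above both. JAG2 rose in lung-recovered cells, at 42.9 ± 17 CPM (SD, n = 3) against 1.15 ± 0.329 (SD, n = 2), a fitted 37.9-fold difference (log2 fold change 5.24, SE 0.47, adjusted p = 0.0231, edgeR). In bulk RNA, more expressing cells and more RNA per cell cannot be told apart. JAG2 was the only 1 of the 8 tested genes to pass in this comparison, in which 0.498% of all tested genes passed. Over the alternatives run, the adjusted p for JAG2 ranged from 1.12e-72 to 0.337. The call was lost without the bleomycin library (adjusted p = 0.118), control clone 1 (0.278) or control clone 3 (0.337).

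**Figure D1:**
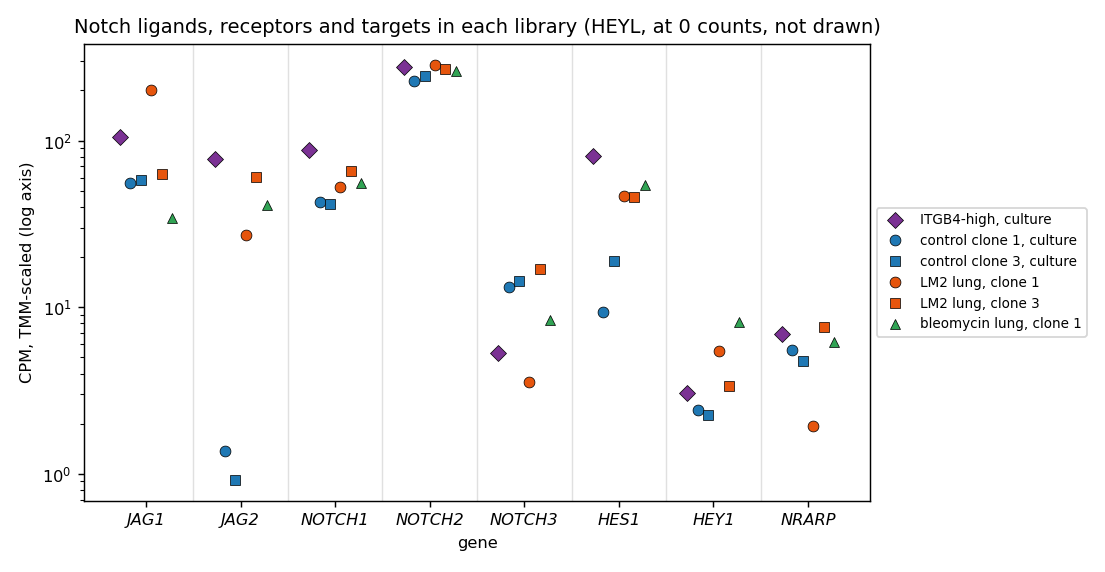
CPM of 8 Notch genes in each of the 6 libraries, on a log axis, with 1 point per library. JAG2 and HES1 separate the 2 cultured controls (blue) most widely from the other 4 libraries. NOTCH1, NOTCH2 and HEY1 also lie above both controls in those 4, NOTCH2 within 227 to 285 CPM in all 6.

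Over its own clone's control JAG2 was 19.6-fold higher in LM2 clone 1 (log2 ratio 4.29, 95% exact counting interval 3.64 to 5.02), 66.3-fold in LM2 clone 3 (6.05, 5.42 to 6.77) and 29.5-fold in bleomycin clone 1 (4.88, 4.24 to 5.60). Clone 3 thus showed the larger ratio, with a counting interval that did not meet that of LM2 clone 1. With 1 library per clone and condition, this difference between clones was not tested. The 61 tested genes within 5 megabases of JAG2 had median log2 ratios of 0.04, 0.04 and 0.12 in the same libraries and 0.00 in ITGB4-high cells, so JAG2 stood apart from its chromosomal neighbours.

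JAG1, the other ligand, followed no common direction (ENSG00000101384, chromosome 20, 10637684 to 10673999, minus strand). It was at 55.5 and 58.1 CPM in control clones 1 and 3, 201 and 62.8 with LM2 (clones 1 and 3), 34.4 with bleomycin and 105 in ITGB4-high cells. The bleomycin library lay below both controls and LM2 clone 1 above all others, so the lung libraries enclosed the controls. The fitted difference in lung-recovered cells was 0.81 on the log2 scale (SE 0.71, adjusted p = 0.545), and it was -0.23 without LM2 clone 1. Over its own control JAG1 was 3.63-fold higher in LM2 clone 1 (log2 ratio 1.86, 95% interval 1.74 to 1.98), 1.08-fold in LM2 clone 3 (0.11, -0.01 to 0.23) and 1.61-fold lower in bleomycin clone 1 (-0.69, -0.85 to -0.53). Bleomycin against LM2, fitted over these libraries, gave -1.94 (SE 0.74, adjusted p = 0.926).

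Per kilobase of exon, the 2 Jagged ligands together were at 6.18 and 6.39 CPM in control clones 1 and 3, 25.9 and 16.3 with LM2 (clones 1 and 3), 10.1 with bleomycin and 23.5 in ITGB4-high cells. JAG2 made up 3.5% and 2.25% of that sum in the controls. Its share was 16.4% and 58.5% with LM2 (clones 1 and 3), 63.3% with bleomycin and 51.9% in ITGB4-high cells. LM2 clone 1 owed its sum mainly to JAG1, whereas in the bleomycin library JAG1 was below the controls and JAG2 made the sum larger than theirs. The shares depend on the gene length used: with the longest coding transcript they were 12.1%, 49.7%, 54.7% and 43.1%, in the same order, so that JAG2 exceeded JAG1 by both lengths only in the bleomycin library of the 6. This alternative was chosen after seeing the data.

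**Figure D2:**
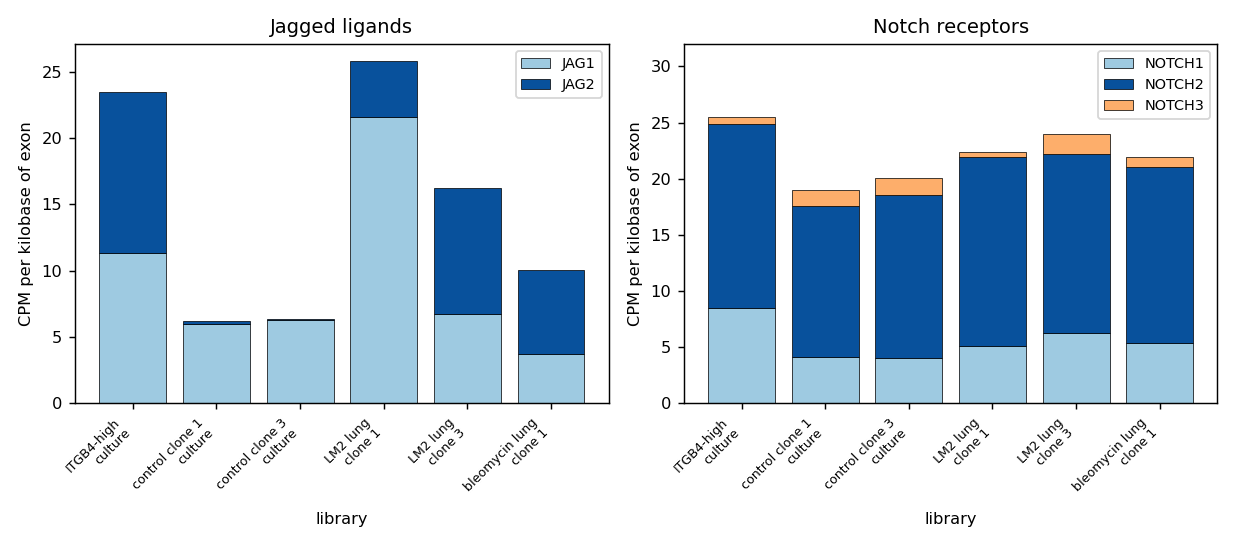
Stacked bars of CPM per kilobase of exon for the Jagged ligands (left) and the Notch receptors (right), 1 bar per library. JAG2 takes 2.25% to 3.5% of the ligand bar in controls and 16.4% to 63.3% elsewhere, while NOTCH2 takes 64.5% to 75.7% of the receptor bar in all 6 libraries.

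Among the receptors, NOTCH2 was the most abundant per kilobase in every library, followed by NOTCH1 and then NOTCH3. NOTCH2 (ENSG00000134250, chromosome 1, 119911553 to 120069626, minus strand) was at 227 and 243 CPM in control clones 1 and 3, 285 and 267 with LM2 (clones 1 and 3), 263 with bleomycin and 276 in ITGB4-high cells. These are 13.5 to 16.9 CPM per kilobase. All lung libraries lay above both controls by a narrow margin, and the fitted difference was 0.21 (SE 0.12, adjusted p = 0.359). NOTCH2 has near-identical partial copies on the same chromosome. A search for a few related genes by name matched NOTCH2NLA, with 31 reads in all, and the pseudogene NOTCH2P1, with 0. How reads shared between copies were assigned is not given in the sources used here.

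NOTCH1 (ENSG00000148400, chromosome 9, 136494433 to 136545786, minus strand) was at 42.5 and 41.9 CPM in control clones 1 and 3, 52.5 and 65.2 with LM2 (clones 1 and 3), 55.9 with bleomycin and 88.1 in ITGB4-high cells. The controls were lowest, the lung libraries lay above them without overlap, and ITGB4-high cells were highest. In lung-recovered cells the fitted difference was 0.46 (SE 0.14, adjusted p = 0.168), and in ITGB4-high cells it was 1.06 (SE 0.19, adjusted p = 0.0778). Per kilobase NOTCH1 was at 4.03 to 8.49 CPM, a share of the 3 receptors of 20.1% to 26.2% in ITGB4-low cells, lung libraries included, and of 33.3% in ITGB4-high cells.

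NOTCH3 (ENSG00000074181, chromosome 19, 15159038 to 15200981, minus strand) was the scarcest receptor, at 0.379 to 1.8 CPM per kilobase. It stood at 13.3 and 14.4 CPM in control clones 1 and 3, 3.56 and 16.9 with LM2 (clones 1 and 3), 8.38 with bleomycin and 5.32 in ITGB4-high cells. LM2 clone 3 was the highest library and LM2 clone 1 the lowest. The lung-recovered group as a whole was at -0.52 (SE 0.58, adjusted p = 0.632). Over its own control NOTCH3 was 3.73-fold lower in LM2 clone 1 (log2 ratio -1.90, 95% interval -2.40 to -1.43) and 1.58-fold lower in bleomycin clone 1 (-0.66, -0.99 to -0.34), and it was at 0.23 (-0.01 to 0.47) in LM2 clone 3.

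HES1, the best-known target of the pathway, had the next largest difference after JAG2 (ENSG00000114315, chromosome 3, 194136145 to 194138732, plus strand). It was at 9.34 and 18.9 CPM in control clones 1 and 3, 46.3 and 45.6 with LM2 (clones 1 and 3), 53.8 with bleomycin and 80.3 in ITGB4-high cells. The lung libraries lay close together and above both controls, while the 2 controls differed from each other by more than the lung libraries did in ratio. Lung-recovered cells averaged 48.5 ± 4.54 CPM (SD, n = 3) against 14.1 ± 6.77 (SD, n = 2), a fitted log2 fold change of 1.77 (SE 0.31, adjusted p = 0.0745), which did not pass. Without LM2 clone 3 it passed (adjusted p = 0.0452), as did 6.55% of all tested genes, and it passed in DESeq2 (7.78e-06), as did 8.06%. Over the alternatives run, the adjusted p for HES1 ranged from 2.06e-14 to 0.322.

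The controls differed, so ratios are given by clone. HES1 was 4.96-fold higher over its own control in LM2 clone 1 (log2 ratio 2.31, 95% interval 2.04 to 2.59), 2.41-fold in LM2 clone 3 (1.27, 1.09 to 1.45) and 5.76-fold in bleomycin clone 1 (2.53, 2.26 to 2.80). Its 57 tested neighbours within 5 megabases had medians of 0.02, 0.04 and 0.11 in these libraries. In ITGB4-high cells the same neighbours had a median log2 ratio of 0.71 over the controls, with quartiles of 0.14 and 1.07, beside a fitted 2.50 for HES1 itself. The part of this regional shift in the HES1 value was not tested.

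**Figure D3:**
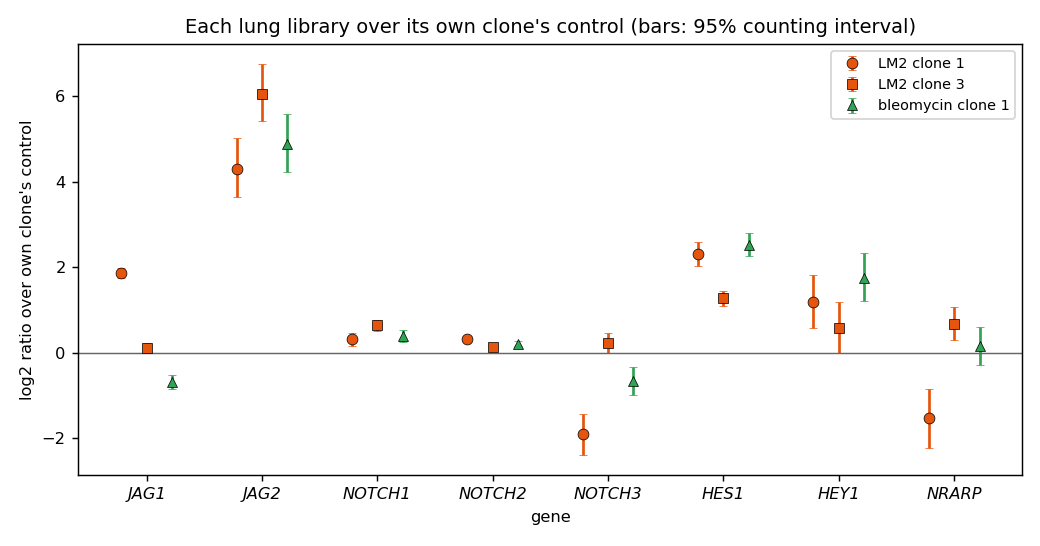
Log2 ratio of each lung library over the control of its own clone for 8 Notch genes, with 95% exact counting intervals that do not include the spread between libraries. JAG2, HES1, HEY1, NOTCH1 and NOTCH2 are positive in all 3 libraries, JAG1 ranges from -0.69 to 1.86, and NOTCH3 and NRARP are lowest in LM2 clone 1.

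HEY1, a second repressor of the family, was scarce (ENSG00000164683, chromosome 8, 79764010 to 79767863, minus strand). It stood at 2.42 and 2.25 CPM in control clones 1 and 3, 5.49 and 3.38 with LM2 (clones 1 and 3), 8.13 with bleomycin and 3.06 in ITGB4-high cells. The bleomycin library was highest. It was also highest for the endothelial marker PECAM1 (9.41 CPM), the leukocyte markers PTPRC (2.69) and CD68 (1.6) and the fibroblast marker DCN (39.2). It was not highest for the other tested markers of lung cells. These were KDR, ERG, LYZ, AGER, NKX2-1, PDGFRA, PDGFRB, COL1A1, COL3A1 and RGS5. The endothelial markers KDR and ERG were expressed in the cultured controls. KDR was at 1.73 CPM in the bleomycin library, against 70.7 and 105 in control clones 1 and 3, and ERG at 12.2 against 10.6 and 13. The part of other cells in the HEY1 value was not tested. The lung libraries did not overlap the controls. The fitted difference in lung-recovered cells was 1.28 (SE 0.42, adjusted p = 0.185). Counts of 35 to 127 reads per library set its precision, and the ratio in LM2 clone 3, at 0.59, had a 95% interval of 0.00 to 1.18.

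NRARP, the feedback inhibitor (ENSG00000198435, chromosome 9, 137300482 to 137302251, minus strand), had lung values on both sides of the controls. It was at 5.53 and 4.73 CPM in control clones 1 and 3, 1.93 and 7.6 with LM2 (clones 1 and 3), 6.14 with bleomycin and 6.92 in ITGB4-high cells. LM2 clone 1, with 25 reads, was the lowest library and LM2 clone 3, with 119, the highest. The fitted difference in lung-recovered cells was 0.04 (SE 0.54, adjusted p = 0.975).

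HEYL (ENSG00000163909, chromosome 1, 39624153 to 39639945, minus strand) had 0 reads in every library, which allows a level of up to 0.138 to 0.232 CPM. An antisense gene model, AL035404.2, overlaps HEYL and also had 0 reads. The strand setting of the counting is not given in the sources used here.

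Per kilobase, HES1 was the most abundant of the targets in all 6 libraries, at 4.53 and 9.17 CPM in control clones 1 and 3, 22.4 and 22.1 with LM2 (clones 1 and 3), 26.1 with bleomycin and 39 in ITGB4-high cells. NRARP followed at 1.09 to 4.29 and HEY1 at 0.696 to 2.52, and these overlapped: HEY1 exceeded NRARP in LM2 clone 1. In the controls NOTCH2 was the most abundant of all 9 genes per kilobase. In the 3 lung libraries and in ITGB4-high cells HES1 was, with either gene length in the bleomycin, LM2 clone 3 and ITGB4-high libraries. In LM2 clone 1 JAG1 came first with the longest coding transcript, at 33.9 against 29.3 for HES1.

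Across the comparison of lung-recovered with control cells, 7 of 8 tested genes had a positive fitted difference and their median was 0.63, against 0.00 over all 15673 tested genes. In this comparison 4 of the 8 (JAG2, HES1, NOTCH1 and HEY1) had an unadjusted p under 0.05, as did 20.5% of all tested genes. Every lung library lay above both controls for 5 of 8 (JAG2, HES1, HEY1, NOTCH1 and NOTCH2), beside 20.4% of all tested genes, and below both controls for 0 of 8, beside 25.4%.

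Split by trigger, 0 of the 8 genes passed in edgeR. In LM2 lung cells against control, where 0.0319% of all tested genes passed, JAG2 was at 5.28 (SE 0.54, adjusted p = 0.106) and HES1 at 1.69 (SE 0.35, adjusted p = 0.211). In bleomycin lung cells against control, where 0.0255% passed, JAG2 was at 5.17 (SE 0.57, adjusted p = 0.101), HES1 at 1.92 (SE 0.41, adjusted p = 0.215) and HEY1 at 1.80 (SE 0.41, adjusted p = 0.224). Both comparisons use the same controls, so their values are not separate evidence. Each had 3 of the 8 at an unadjusted p under 0.05, beside 15.6% (LM2) and 14.5% (bleomycin) of all tested genes. DESeq2 called JAG2 and HES1 in each, beside 4.13% and 3.68% of all tested genes, and limma-voom called 0, beside 0.0128% and 0.0191%. Bleomycin against LM2 directly gave 0 of 8 by all 3 tools, beside 0% of all tested genes in edgeR, 0.338% in DESeq2 and 0% in limma-voom. JAG1 alone had an unadjusted p under 0.05 there, beside 4.61% of all tested genes. The edgeR counts moved when an LM2 library was left out, and so did those over all genes. Without LM2 clone 1 or LM2 clone 3, edgeR called 2 and 8 of the 8 for LM2 (11.6% and 40.8% of all tested genes), 5 and 6 for bleomycin (28.1% and 27.2%), and 4 and 4 between the triggers (7.42% and 19.2%).

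ITGB4-high cells, which stayed in culture, had a positive fitted difference from the controls for 7 of the 8 genes, with a median of 0.66 against -0.01 over all tested genes. JAG2 was at 6.10 (SE 0.58, adjusted p = 0.0514), HES1 at 2.50 (SE 0.40, adjusted p = 0.0704) and NOTCH1 at 1.06 (SE 0.19, adjusted p = 0.0778), so 0 of 8 passed in edgeR, beside 0.0893% of all tested genes, and 3 had an unadjusted p under 0.05, beside 24.5%. NOTCH3 was the negative one, at -1.38 (SE 0.94, adjusted p = 0.41). With the clone as a replicate block JAG2 (adjusted p = 0.0284) and HES1 (0.0406) passed, beside 2.32% of all tested genes. Over the alternatives run, the adjusted p ranged from 1.72e-74 to 0.408 for JAG2 and from 3.43e-20 to 0.371 for HES1. DESeq2 called these 2 and NOTCH1, beside 9.63% of all tested genes, and limma-voom called 0, beside 0.0128%. Without LM2 clone 1 or LM2 clone 3, edgeR called 4 and 5 of the 8, beside 42% and 41.6% of all tested genes. The ITGB4-high arm is 1 library, and it shares its controls with the lung comparison.

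**Figure D4:**
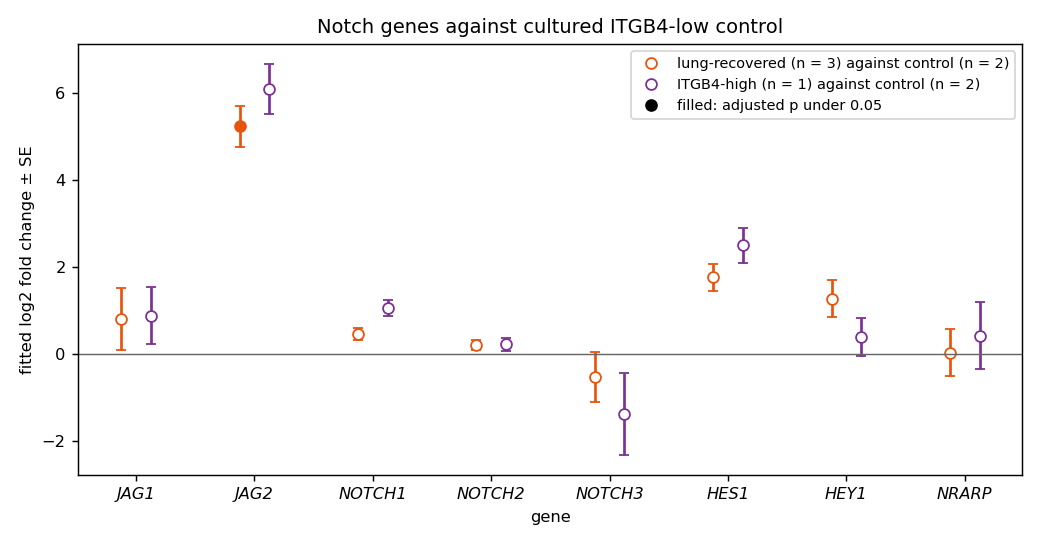
Fitted log2 fold change with its SE for 8 Notch genes, in lung-recovered cells (orange) and ITGB4-high cells (purple) against the same 2 controls. JAG2 in lung-recovered cells is the only filled point (adjusted p = 0.0231), while JAG2 in ITGB4-high cells, at 6.10, has the largest value drawn and misses the threshold (adjusted p = 0.0514).

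Set directly against ITGB4-high cells, lung-recovered cells differed for 0 of 8 genes in edgeR, beside 0.108% of all tested genes. JAG2 (-0.86, SE 0.41, adjusted p = 0.335), HES1 (-0.73, SE 0.35, adjusted p = 0.335) and NOTCH1 (-0.60, SE 0.17, adjusted p = 0.16) had negative fitted values. HEY1 (0.89, SE 0.54) and NOTCH3 (0.86, SE 0.80) were the 2 of the 8 with positive ones. The median of the 8 was -0.24, against 0.04 over all tested genes. NOTCH1 alone had an unadjusted p under 0.05, beside 18.3% of all tested genes. DESeq2 and limma-voom called 0 of 8, beside 6.93% and 0.0957%. A value that misses the threshold with 1 library in an arm does not show that the levels were alike.

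The rest of the pathway was read from lists of 59 genes by role, of which 49 were tested, and 0 of them passed in any of the 6 comparisons in edgeR. In lung-recovered cells against control their median fitted difference was 0.17, and 15 had an unadjusted p under 0.05, 9 higher and 6 lower, beside 20.5% of all tested genes. In the other 5 comparisons 2 to 11 did, beside 4.61% to 24.5%. DESeq2 called 6 of the 49 in lung-recovered cells (CDKN1A, DTX3, DTX4 and IL7R higher, MIB2 and TLE2 lower), beside 8.06% of all tested genes, and 0 to 5 elsewhere, beside 0.338% to 9.63%. In limma-voom 0 passed in all 6 comparisons. Every lung library lay above both controls for 17 of the 49, beside 20.4% of all tested genes. Every lung library lay below both for 12 of the 49, beside 25.4%. Of the Delta-type and other ligands and the fourth receptor, 3 of 6 were tested. The ligand DLL1 was at 2.84 and 3.03 CPM in control clones 1 and 3, 3.87 and 4.98 with LM2 (clones 1 and 3) and 5.95 with bleomycin (0.75, adjusted p = 0.229), above both controls in each. DLK2, a related membrane protein, was at 4.36 and 3.08 CPM in controls, 1.24 and 3.57 with LM2 (clones 1 and 3) and 2.11 with bleomycin (-0.67, adjusted p = 0.446). DLL4, DLL3 and DLK1 were at 0.511 CPM or less throughout. The most reads for DLL1 in any library were 93, against 2600 for JAG1 and 1069 for JAG2.

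Of the ubiquitin ligases that activate ligands by endocytosis, 3 of 4 were tested. MIB2 was lower in each lung library, at 12.9 and 10.6 CPM in controls, 3.79 and 7.34 with LM2 (clones 1 and 3) and 5.18 with bleomycin (-1.10, adjusted p = 0.149). NEURL1B ranged most, at 34.9 and 37.8 CPM in controls, 1.55 and 26.6 with LM2 (clones 1 and 3), 9.98 with bleomycin and 0.948 in ITGB4-high cells (-1.51 in lung-recovered cells, adjusted p = 0.38). Of the glycosyltransferases that tune the receptors, 4 of 5 were tested and all 4 had negative fitted values, among them the fucosyltransferase POFUT1 (-0.31, adjusted p = 0.196) and the glucosyltransferase POGLUT1 (-0.39, adjusted p = 0.213).

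All 9 receptor proteases and gamma-secretase subunits were tested, with a median of -0.02. APH1B, a gamma-secretase subunit, was at 12.3 and 12.2 CPM in controls, 4.1 and 8.87 with LM2 (clones 1 and 3), 5.44 with bleomycin and 1.24 in ITGB4-high cells (-0.99 in lung-recovered cells, adjusted p = 0.194). Its relative APH1A was at -0.25 (adjusted p = 0.288). In the nuclear complex all 7 genes were tested and 6 had positive values (median 0.22). The Mastermind coactivator MAML3 was at 1.16 (adjusted p = 0.23) and the acetyltransferase KAT2B, the negative one, at -0.50 (adjusted p = 0.133).

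Of the inhibitors, corepressors and turnover genes, 15 of 16 were tested and 13 had positive values (median 0.33). DTX4, a Deltex ubiquitin ligase, was at 0.207 and 0.321 CPM in controls, 3.56 and 1.4 with LM2 (clones 1 and 3) and 1.47 with bleomycin (2.93, adjusted p = 0.107), with 3 and 7 reads in the controls. The Groucho-type corepressor TLE2 was at 38.7 and 52.5 CPM in controls, 5.57 and 19 with LM2 (clones 1 and 3) and 9.34 with bleomycin (-2.01, adjusted p = 0.122). Among 12 other genes described as Notch targets, 8 were tested, with a median of 0.03. The cell cycle inhibitor CDKN1A was at 13.8 and 18.6 CPM in controls, 63.9 and 27.8 with LM2 (clones 1 and 3) and 44 with bleomycin (1.48, adjusted p = 0.13). The interleukin-7 receptor IL7R was at 252 CPM with LM2 and 18.7 with bleomycin in clone 1, but at 1.53 in LM2 clone 3, between the controls at 1.94 and 1.38 (5.79, adjusted p = 0.224). HES5 and PTCRA had 0 reads throughout.

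**Figure D5:**
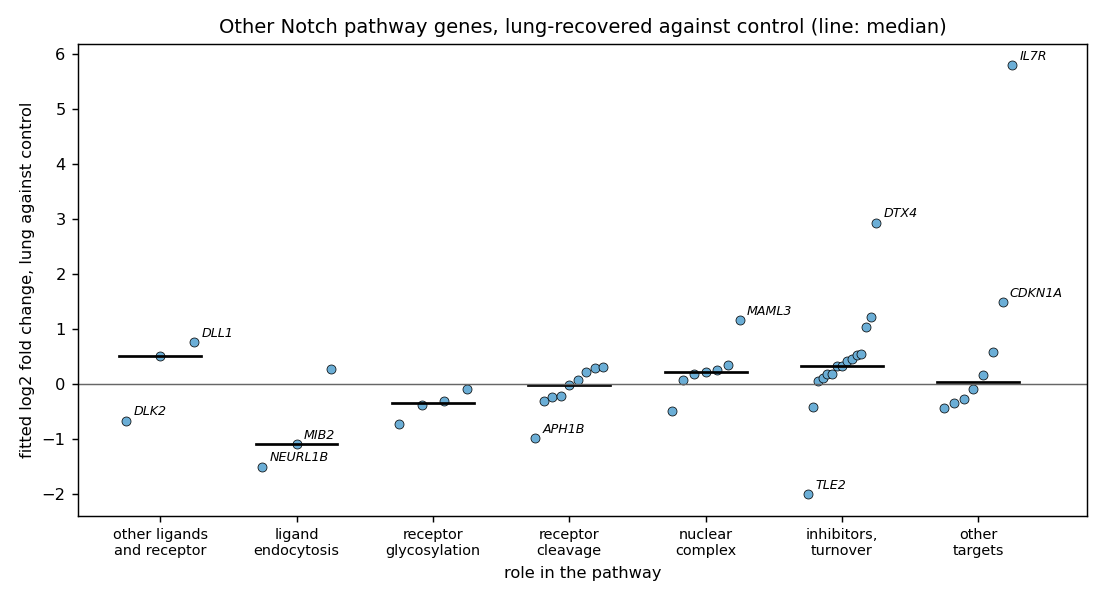
Fitted log2 fold change in lung-recovered cells against control for the 49 tested pathway genes outside the 9, by role, with the median of each role as a line. No gene in the plot passed in edgeR, and IL7R (5.79), DTX4 (2.93) and TLE2 (-2.01) lie farthest from 0.

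The 5 protein-coding genes whose log2 CPM over the 6 libraries was most like that of JAG2, by Pearson's r among 7195 tested genes spanning at least 1 log2 unit, were ADM2 (0.998), DEF6 (0.992), C5orf63 (0.991), PPP1R14C (0.988) and CD40 (0.982). ADM2 was at 2.56 and 1.7 CPM in control clones 1 and 3, 11.3 and 18.3 with LM2 (clones 1 and 3), 13.5 with bleomycin and 20.3 in ITGB4-high cells, the same order as JAG2. These values are a description over 6 points in which the 2 controls stand apart from the other 4, and they carry no test.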

How the data were processed

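Poly(A) RNA was sequenced from 6 libraries. The deposited values are raw counts of reads per gene. The submitters' processing notes name STAR 2.7.1a and hg38. The program that counted reads, its gene models and its use of strand are not given in these sources. Of 58336 identifiers, 58216 matched GENCODE 29, which gave names, coordinates and exon lengths. Counts were tested with edgeR 4.0.16 (R 4.3.3): TMM factors, filterByExpr at a minimum count of 10, robust quasi-likelihood tests and Benjamini-Hochberg adjustment over 15673 genes at 0.05. One fit had 4 groups (2 residual degrees of freedom), and another had 3 classes, control, lung and ITGB4-high (3 residual degrees of freedom). All 6 libraries entered both fits, and for an arm of 1 library the error came from the replicated arms. No label says that libraries came from separate cultures or animals. The replicated arms pair clone 1 with clone 3, and the lung class also mixes LM2 and bleomycin. The p-values therefore measure a spread among libraries that takes in clone and trigger, and not a spread among known animals or cultures. DESeq2 1.42.0, limma-voom (limma 3.58.1), RLE factors, no filter, a clone block and left-out libraries were alternatives.

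Clone numbers pair libraries because equal numbers name the same clone, per the titles. The correlation of clone deviations between control and LM2 libraries was 0.00115 across genes. Sampling noise did not account for the differences within the control pair (chi-square per degree of freedom 8.67) or the LM2 pair (80.1). The members and gene lists were chosen with earlier results of these data known, and a marker gene of the lists is not reported here. Other pathway genes were named as up to 4 called per list or, with none called, the 2 with the smallest p in lung against control. Genes like a called member were the 5 with the highest Pearson r of log2 CPM (prior count 2).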

Additional observations from a re-analysis of the deposited data

Results flagged for a closer look

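NRARP differed in direction between the clones under LM2. Over its own control it was 2.86-fold lower in clone 1 (log2 ratio -1.52, 95% exact counting interval -2.23 to -0.85) and 1.61-fold higher in clone 3 (0.68, 0.29 to 1.08), a difference of -2.20 between the 2 ratios. There is 1 library per clone and condition, so this difference was not tested, and the bleomycin library of clone 1 was at 0.15 (-0.29 to 0.60).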

How the results depend on the processing

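JAG2 in lung-recovered against control cells was positive in all 11 alternatives, at 4.92 to 5.55 on the log2 scale without 1 library. Counts of the 8 Notch genes called were 1 for lung against control and 0 in the other 5 comparisons. For lung against control, LM2 against control, bleomycin against control, ITGB4-high against control and lung against ITGB4-high in that order, they were 2, 2, 2, 3 and 0 with DESeq2, and 3, 2, 3, 3 and 2 without the filter. For ITGB4-high against control, 1 passed with RLE factors and 2 with the replicate block. Leaving out 1 library gave 0 to 2, 0 to 8, 0 to 6, 0 to 5 and 0 to 0 in the same order, and 0 to 4 for bleomycin against LM2. Over all genes, 78, 5, 4, 14 and 17 passed in that order and 0 for bleomycin against LM2. The counts were 1263, 647, 577, 1510, 1086 and 53 with DESeq2, 2152, 1748, 1430, 2707, 1406 and 236 without the filter, and 39, 36, 8, 363, 0 and 0 with the replicate block, so the block ended all calls for lung against ITGB4-high. RLE factors gave 14 for LM2 and 74 for ITGB4-high, and limma-voom 2 and 2. Leaving out 1 library gave 0 to 1012, 0 to 6303, 0 to 4424, 0 to 6611, 0 to 1432 and 0 to 2969. For lung against control, 0 genes passed without either control, 4 without the bleomycin library, 393 without LM2 clone 1 and 1012 without LM2 clone 3. A fit without 1 of a pair lets the lone library vary like the other groups. Signs turned for JAG1 in lung against control (-0.23 without LM2 clone 1, up to 1.22 without bleomycin), for NRARP there (-0.13 in limma-voom, -0.09 without bleomycin, -0.08 without control clone 3, -0.32 without LM2 clone 3, up to 0.43 without LM2 clone 1), and for JAG2 in bleomycin against LM2 (0.27 with the replicate block and 0.58 without LM2 clone 3, adjusted p = 0.0449, against -0.57 without LM2 clone 1, adjusted p = 0.038, so that it passed in opposite directions). The cause of these shifts was not tested. Of 190 fold changes refitted, 149 kept their direction and side of the threshold, 31 passed only in the alternative, 3 no longer passed and 7 turned sign. With plain library totals, 2 of 48 levels left their counting interval. HEY1 and NRARP, at 25 to 127 reads, and JAG2 in controls, at 20, are limited by depth.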
